A study of Rattus norvegicus with 2 samples.

Results

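Barrier-type endothelial cells of the rat dorsal root ganglion (DRG) were the vascular cells in which UMIs (counted mRNA molecules) of efflux transporter genes outnumbered those of venous and fenestrated vessel genes. They numbered 1759 of 24179 deposited barcodes, 682 in Control and 1077 in DPN. A barcode belonged to them when it held at least 1000 UMIs with less than 20% from mitochondrial genes, and at least 10 UMIs of Cldn5, Flt1 and Cdh5 together per 10000. Barcodes with Fabp7 and Tyrp1 at 12 or more per 10000 (glia) or Tagln and Acta2 at 20 or more (mural cells) were left out. The last step kept those with more raw UMIs of Abcb1a, Abcg2 and Slco1a4 than of Plvap and Selp. The cells were thus chosen by these measured levels, which are given below as a description and support nothing.

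The study profiled lumbar DRGs by scRNA-seq in 2 pools of 5 male SD rats each, 1 pool and 1 library per condition. DPN (diabetic peripheral neuropathy) rats had received a single intraperitoneal dose of 65 mg/kg STZ, which destroys insulin-producing cells, and were killed 8 weeks later. Control rats had received citrate buffer at the same time. Rats were bought at 8 weeks of age and injected after 1 week of feeding. DRGs of both conditions were minced, digested with collagenase and trypsin, depleted of dead cells and loaded at once.

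The blood supply of the DRG runs through vessels of differing permeability, and STZ diabetes raises the glucose concentration to which all of them are exposed. In barrier endothelium, claudins and cadherins seal the gaps between neighbouring cells, Mfsd2a limits vesicle traffic, and ATP-driven pumps such as P-glycoprotein (Abcb1a) and BCRP (Abcg2) return lipophilic compounds to the blood. Nutrients that cannot diffuse across are moved by dedicated carriers, among them GLUT1 (Slc2a1) for glucose. In the brain this programme is held on by Wnt ligands that signal through Fzd4 and Lrp6 to the transcription factor Lef1.

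The cells carried endothelial markers. After thinning every cell to 1000 UMIs, 90.5% of the barrier-type cells in Control and 84.5% in DPN held a UMI of Cldn5. Of the Fabp7 and Tyrp1 glia, 0.438% and 0.805% held one. Cldn5 is a gene of the rule, and all of these glia lay below the rule's endothelial limit. These shares were thus shaped by the selection, and the glial share does not measure the background from free RNA. Prom1, which the rule did not use, had a UMI in 39.7% and 45.7% of the thinned barrier-type cells, against 0.195% and 0.369% of the glia. Slc2a1 had one in 43.7% and 32.9% against 11.2% and 9.69%, so part of its UMIs could also come from other cells. Without thinning, Abcb1a was found in 89.0% and 90.3% of cells and Plvap still in 67.7% and 61.7%. Among lymphatic markers, Prox1 had 5 UMIs in Control and 9 in DPN and Mmrn1 had none and 1, while Lyve1 had 84 and 274 and Flt4, which blood vessels also express, 250 and 387. Ccl21 had none in 682 and 1077 cells, which allows a share of cells with a UMI of up to 0.440% and 0.279%.

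Depth was lower in DPN. Over all barcodes past the UMI and mitochondrial limits, the median was 9928 UMIs in Control and 6446 in DPN. The median barrier-type cell held 10757.5 UMIs in Control and 9578 in DPN, and all of them together held 9237570 and 12673192. Of the gated endothelial cells, the barrier-type cells made up 88.1% in Control (exact binomial 95% interval 85.6% to 90.3%) and 91.5% in DPN (89.8% to 93.0%). Cells with Plvap and Selp in excess numbered 63 and 57, and 29 and 43 were tied. Just inside the last step, 27 and 45 cells had 1 efflux UMI more than venous UMIs and a median depth of only 2414 and 2093, and just outside it 9 and 12 had 1 fewer. At the endothelial limit, 8 and 9 cells lay between 10 and 12 per 10000, and 11 and 17 lay between 8 and 10. The libraries shared 38 barcodes, 1 of them among the barrier-type cells. With 1 library per condition there is no replicate error and no test: DPN, the rats, the pool and the library preparation cannot be told apart, and all intervals are exact 95% intervals that cover counting error only.

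Levels are given as UMIs of a gene for every 1000000 UMIs of the cells (CPM). They come from tags at the 3′ end of each transcript and carry no length term, so they are compared between cells or libraries and not between genes. For the efflux genes of the rule, Abcb1a stood at 564 CPM in Control and 872 in DPN, Abcg2 at 991 and 979 CPM and Slco1a4, an organic anion carrier, at 902 and 1007 CPM. Prom1, which encodes a membrane protein of protrusions, stood at 654 and 754 CPM. In the Plvap or Selp cells it stood at 205 and 115. Slc2a1 stood at 703 and 509.7 CPM in the barrier-type cells and 182 and 94.7 in the Plvap or Selp cells. Both genes were thus higher in the barrier-type cells of each library.

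**Figure D1:**
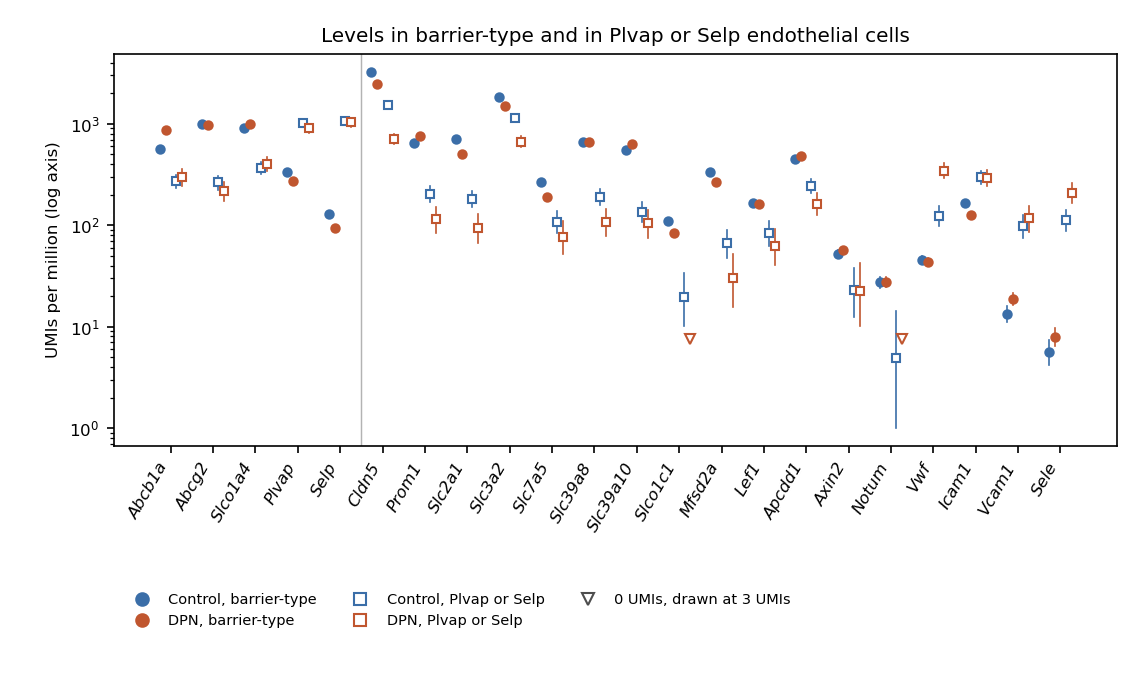
Levels in barrier-type (filled circles) and Plvap or Selp (open squares) endothelial cells, in CPM on a log axis, with 1 point per gene and library, bars for exact Poisson 95% intervals and triangles at 3 UMIs where none was counted. The rule used the 5 genes left of the grey line, and Cldn5 too. Slc2a1 and Prom1 lie above the Plvap or Selp cells in both libraries, and Vwf lies below them.

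Barrier-type cells differed from the Plvap or Selp cells in carriers, Wnt target genes and adhesion molecules. Of 7491 genes with at least 200 UMIs, 640 (8.54%) were at least 1.5 times as high in the barrier-type cells in both libraries, and 170 (2.27%) were at or below 0.667 times in both. Among solute carriers of barrier endothelium, 10 of 19 were higher by that measure, as were 5 of 19 Wnt and barrier transcription genes, 3 of 7 ABC transporters, 4 of 9 capillary genes and 6 of 14 arterial genes. Lower in both were 2 solute carriers (Slc6a6 and Slc29a1) and 2 arterial genes (Ltbp4 and Eln). Abcb1a, Abcg2 and Slco1a4 are among those counted as higher and are genes of the rule. Since the rule divided these cells by their expression, these counts describe the division and are not a test.

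Among single carriers, Slco1c1, which takes up thyroid hormone, stood at 111 and 84.6 CPM in the barrier-type cells of Control and DPN. In the Plvap or Selp cells it stood at 19.6 CPM in Control and had no UMI in DPN, which makes it at least 11.3-fold higher there against a floor of 3 counts. Mfsd2a, the carrier of omega-3 lysolipids, stood at 335 and 267 CPM, against 66.8 and 29.9. The transporters Slc7a5, Slc3a2 and Slc7a1, which carry amino acids, and the metal carriers Slc39a8 and Slc39a10 were likewise higher in both libraries. Slc39a8 stood at 667 and 658 CPM, and Slc39a10 at 549 and 638 CPM. Mfsd2a was also found in the glia, at 76.8 and 66.0 CPM, above the Plvap or Selp cells and below the barrier-type cells.

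Some transporters of brain vessels were nearly missing. Slc22a8, an organic anion carrier, had no UMI in 682 Control cells, which allows a share of up to 0.440%, and 1 UMI in DPN. Slc38a5, which carries glutamine, had 2 UMIs in Control and 4 in DPN. Ocln, a tight junction protein, had 65 and 70 UMIs in all cells together, although Cldn5 stood at 3221 and 2469.7 CPM. Slc2a3, a glucose carrier of neurons, had no UMI in either library.

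Several Wnt target genes were higher in the barrier-type cells. Lef1 stood at 164 and 163 CPM, against 83.1 and 62.3 in the Plvap or Selp cells. The Wnt inhibitor Apcdd1 stood at 448 and 481 CPM, against 244 and 162, and the feedback gene Axin2 at 52.4 and 56.7 CPM, against 22.8 and 22.4. Notum, a secreted enzyme that inactivates Wnt ligands, stood at 27.4 and 27.5 CPM. In the other cells it stood at 4.89 in Control, and it had no UMI in DPN, a level at least 3.68-fold higher in the barrier-type cells. The receptor Fzd4 stood at 76.6 and 77.7 CPM, against 55.4 and 74.8.

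The 20 genes with the highest ratio of barrier-type to Plvap or Selp cells in the lower of both libraries included Cacnb2, Spock2, Lyz2, Foxs1, Adamts5, Tpd52l1, Adtrp, Paqr5, Slco1c1, Lrp8, Nrgn, Notum, Ccdc141, S1pr3, Pde5a, Gpr155, Mfsd2a, Ccl5 and Alcam. Spock2, a proteoglycan of capillaries, stood at 81.2 CPM in Control and 101 in DPN, against 6.52 and 2.49. Ccl5, a chemokine for T cells, stood at 407 and 275, against 81.5 and 2.49. Lrp8, a receptor for reelin and apolipoprotein E, stood at 46.1 and 64.7, against 8.15 and 4.98, and Alcam, an adhesion molecule, at 118 and 186, against 24.4 and 17.4. Levels of 2.49 and 4.98 CPM in the small DPN group were 1 and 2 UMIs. Where the Plvap or Selp cells had no UMI, the floor of 3 counts makes Cacnb2 at least 1.79-fold higher in Control and 3.54-fold in DPN, Pde5a at least 2.02-fold and Adamts5 at least 1.28-fold in Control, and Adtrp at least 1.15-fold in DPN, and it gives no bound above 1 for Foxs1 in DPN. All these genes passed the minimum of 200 UMIs over both kinds of cells, of which the barrier-type cells held by far the most. S1pr3 and Adamts5 stood higher in the glia than in the barrier-type cells. S1pr3 had 191 and 178 CPM in the glia of Control and DPN, against 19.3 and 13.6 in the barrier-type cells. Adamts5 had 40.2 and 80.6 in the glia, against 6.28 and 16.9. Lyz2 is a macrophage gene and Foxs1 a pericyte gene, and clusters led by such cells are described below.

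At the other end, the Plvap or Selp cells held more Fabp4, which binds fatty acids, with 228 and 244 CPM against 2.38 and 0.473. Sele (E-selectin) stood at 112 and 209 against 5.63 and 7.97, and Vcam1 at 97.8 and 117 against 13.3 and 18.8, both of them adhesion molecules for leukocytes. Rtp3, Lbp, Clic2, Neurl3, Il6r, Cxcl11 and Tmem252 completed the 10 genes of that side. Vwf, the clotting factor stored by venous endothelium, stood at 124 and 346 there and at 45.4 and 43.3 CPM in the barrier-type cells.

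The barrier-type cells were not uniform. Leiden clustering gave 10 clusters of 7 to 428 cells. Cluster 2 (390 cells) was capillary-like, with Aplnr, Cxcl12 and Mfsd2a among its 10 leading genes. Cluster 1 (428 cells) was led by Nrp2, Ciart, Prdm1, Nr1d1 and Cdc42ep3, cluster 4 (176 cells) by Pi16, S100a4, Cytl1, Igf2 and Mgp, cluster 5 (135 cells) by Tpd52l1, Arpp21 and Pcp4l1, and cluster 8 (107 cells) by Selp, Rsad2, Lbp and Slco2a1. These 4 stay unnamed. The arterial list was highest in cluster 4, where it summed to 5551 CPM, and the capillary list was lowest there, at 605. Mgp alone, a gene of the arterial list, had a mean of 29.0 UMIs per 10000 in cluster 4 and made up a large part of that sum. The fibroblast list summed to 629 CPM in cluster 4, more than in clusters 1, 2, 5 and 8.

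Clusters 3, 6, 7 and 9 were led by genes of other cells. Cluster 3 (260 cells) held Rgs5, Higd1b, Kcnj8, Pdgfrb and Ndufa4l2, genes of pericytes, and its median cell held 17580 UMIs. Cluster 6 (125 cells) was led by myelin genes such as Mbp and Pmp22, and cluster 9 (7 cells) by Lyz2, Cd74 and complement genes. Cluster 7 (124 cells) was led by the neuronal genes Calca, Uchl1 and Tubb3. Its cells were shallow, with a median of 1439.5 UMIs, and 50% of them held a UMI of Calca. Cluster 10 (7 cells) was led by the cell division genes Mki67, Tpx2 and Cenpf. It held 3 Control and 4 DPN cells with 56453 and 45819 UMIs, so its ratios rest on few cells. Where ratios over 6 clusters are given below, cluster 10 is 1 of the 6. Doublet scoring marked 43 barrier-type cells (6.30%) in Control and 93 (8.64%) in DPN, which were kept. Ratios over all members mix the clusters, which the libraries filled unequally: cluster 1 held 18.8% of Control and 27.9% of DPN members, cluster 2 27.0% and 19.1%, cluster 3 20.2% and 11.3% and cluster 7 4.4% and 8.73%. Results are given for all members and, where stated, for the 466 Control and 777 DPN cells outside clusters 3, 6, 7 and 9, called the remaining cells.

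The levels of Abcg2, Slc2a1 and Mfsd2a lay further apart between clusters 2 and 4 than between the libraries. Abcg2 stood at 1613 and 1535 CPM in cluster 2 and 120.3 and 163 in cluster 4 (Control and DPN). Slc2a1 stood at 1249 and 973 in cluster 5, 1021 and 699.8 in cluster 2, and 319 and 233 in cluster 4. Mfsd2a stood at 604 and 517 in cluster 2 and 50.3 and 36.9 in cluster 4. Ccl5, a chemokine, stood at 784 and 496 in cluster 2 and 12 and 26.7 in cluster 4.

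**Figure D2:**
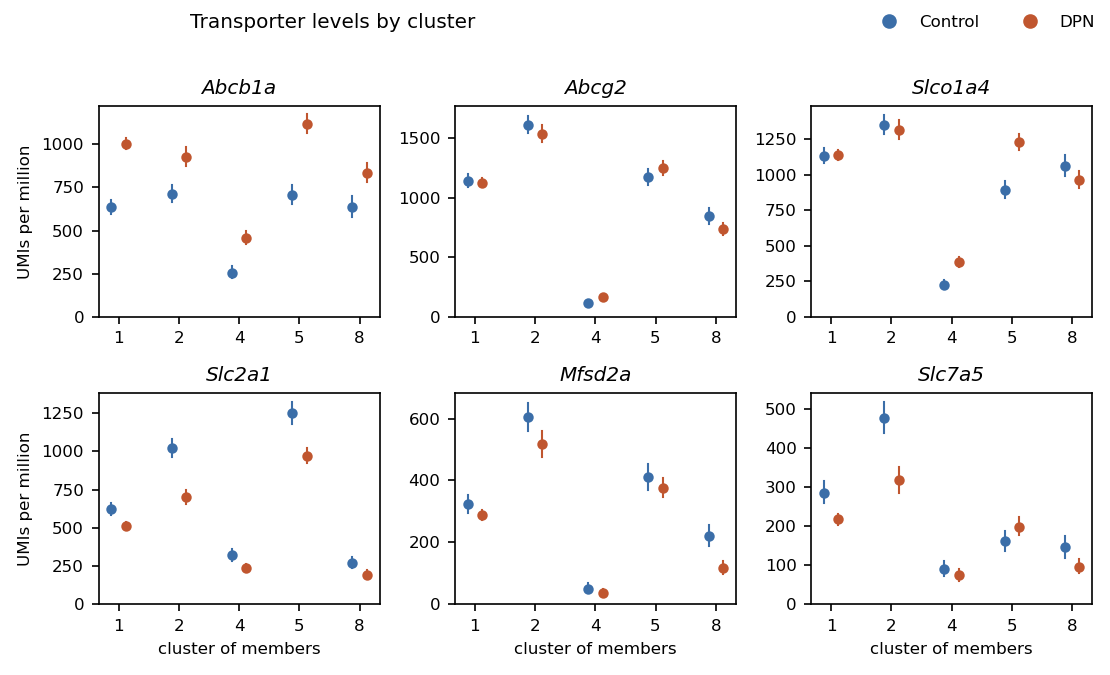
Levels of 6 transporter genes in clusters 1, 2, 4, 5 and 8 of the barrier-type cells, in CPM on linear axes from 0, with Control and DPN as separate points and exact Poisson 95% intervals. Of these clusters, cluster 4 lies lowest for Abcb1a, Abcg2, Slco1a4 and Mfsd2a in both libraries.

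Between DPN and Control, most clock genes were higher in DPN, as were Abcb1a, the catenins Ctnnb1 and Ctnnd1 and the receptors Nrp1 and Tgfbr2. Several cytosolic chaperones, the chemokine Ccl2 and the matrix gene Ibsp were lower, and most transporters lay within 1.5-fold of Control. Of 7385 genes with at least 200 UMIs in the barrier-type cells, 1248 (16.9%) were at least 1.5 times as high in DPN and 325 (4.40%) were at or below 0.667 times, 21.3% in either direction, and the median gene had a log2 ratio of 0.04. The counts of each gene list below are read against these shares. Without clusters 3, 6, 7 and 9, 1074 genes (17.7% of those tested) were higher and 202 (3.32%) lower.

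The 15 highest ratios belonged to Apod, Ppp1r13b, Rictor, Mcc, Tmod2, Enpp5, Ptbp2, Arhgap26, Slc30a9, Ski, Rap1b, Scn7a, Dcn, Suz12 and Nav1. Rictor, the defining subunit of mTOR complex 2, stood at 4.76 CPM in Control and 23.2 in DPN, a ratio of 4.87 (3.54 to 6.85). Ppp1r13b, a p53-binding protein, stood at 5.63 and 29.7 CPM (5.27 times), with a glial ratio of 5.45. Rap1b, a GTPase of junctions and platelets, stood at 12.3 and 48.4 CPM (3.93 times), and Suz12, a Polycomb subunit, at 18.7 and 71.1 CPM (3.8 times). Mcc stood at 6.71 and 30 CPM, and Ski, a repressor of SMAD signalling, had a ratio of 4.02. In the clusters with at least 20 UMIs of these genes outside clusters 3, 6, 7 and 9, the ratio lay between 3.79 and 7.58 for Rictor, 3.08 and 5.52 for Rap1b and 2.4 and 5.11 for Suz12, above 1 in each. In the glia of the same libraries, all 15 genes except Apod and Dcn were also higher in DPN. The ratios of those genes there ran from 2.55 (Arhgap26) to 5.45 (Ppp1r13b). Tmod2 stood at 120 and 396 CPM in the glia, against 4.98 and 21.5 in the barrier-type cells. Scn7a stood at 54.2 and 193 in the glia, against 6.39 and 24.9. The part of free RNA in these ratios was not tested.

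Apod and Dcn rested on few cells. Apod, a lipocalin of glia and fibroblasts, stood at 35.8 CPM in Control and 217 in DPN (6.06 times, 5.4 to 6.81), but 92.9% of its DPN UMIs lay in 11 cells, and in the remaining cells the ratio was 0.623. Dcn, the fibroblast proteoglycan decorin, stood at 26.5 and 103 CPM (3.88 times), with 91.7% of its DPN UMIs in 11 cells and a ratio of 0.928 in the remaining cells. The fibroblast list summed to 139 CPM in Control and 233 in DPN. Neither gene was higher in DPN once the clusters led by other cells were left out.

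The 15 lowest ratios belonged to Ibsp, Pln, Ifitm1, Arhgap15, Ndufa4l2, Hopx, Olfml2b, Pcolce, Foxs1, Vtn, Bgn, Ccl2, Ogn, Ptgir and Adora2a. Several of them are genes of pericytes or fibroblasts. Ndufa4l2 stood at 135 and 41.7 CPM, Vtn at 126 and 44 CPM and Ifitm1 at 170.1 and 49.9 CPM, and the mural list summed to 655 CPM in Control and 405 in DPN, with 9 of its 11 measured genes lower. In the remaining cells that list had 3 measured genes, none past the threshold, and its sums were 135 and 162.

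Ibsp had the lowest ratio of all. It encodes bone sialoprotein, an acidic matrix protein. Ibsp stood at 29.8 CPM in Control and 2.53 in DPN, a ratio of 0.0848 (0.0569 to 0.123), and was found in 21.4% of Control cells and 2.04% of DPN cells. In the 4 clusters with at least 20 UMIs its ratio lay between 0.0516 and 0.163, and in the remaining cells it was 0.0686. The gene was thus lower in DPN in each of those clusters.

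**Figure D3:**
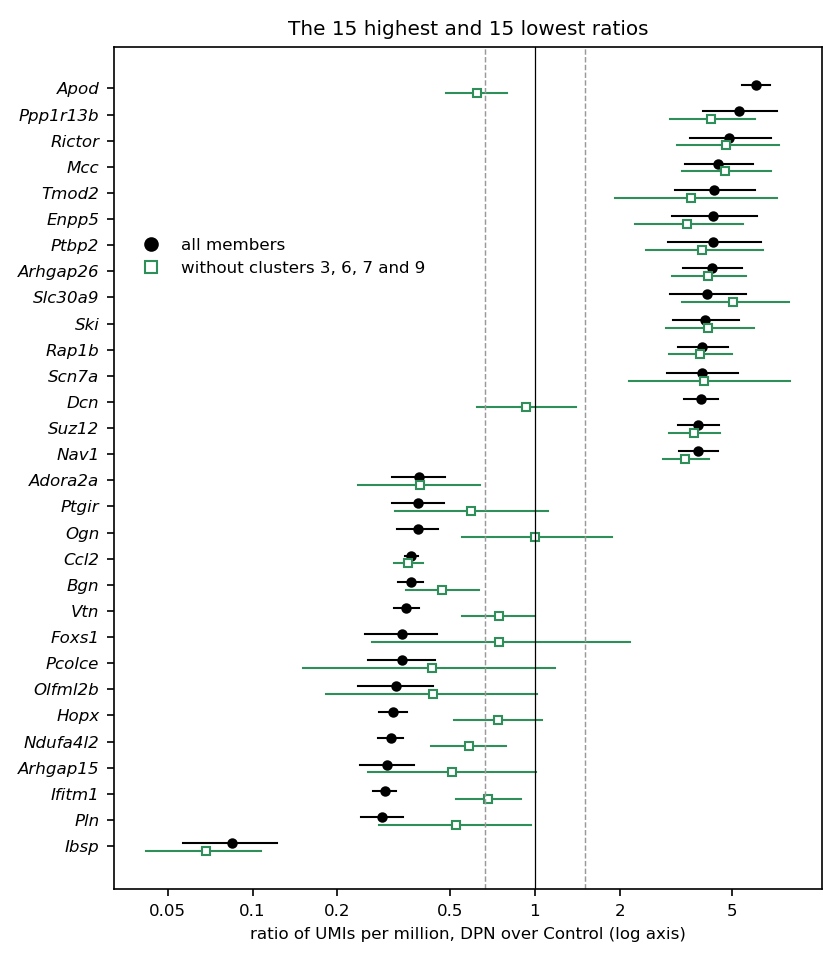
DPN over Control ratio of the 15 highest and the 15 lowest genes of the barrier-type cells, on a log axis, for all members and for the remaining cells, with exact 95% intervals; vertical lines mark 1 and the 1.5-fold limits. Ibsp lies far left in both sets of cells, while Apod and Dcn cross below 1 in the remaining cells.

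Most efflux and nutrient transporters lay within 1.5-fold. Of 7 ABC transporters (median log2 ratio 0.36) only Abcb1a was at least 1.5 times as high (1.54 times, 1.49 to 1.6), and its ratio was above 1 in every cluster outside clusters 3, 6, 7 and 9 (1.3 to 1.78). It fell short of the limit in 4 of 14 alternative settings, with 1.499 after median-ratio scaling, 1.46 under an upper UMI limit, 1.44 when each cell counted alike and 1.36 in thinned cells. Abcg2 had a ratio of 0.988 (0.961 to 1.01) and lay between 0.86 and 1.35 over 6 clusters, above 1 in 2 of them and below 1 in 4. Abcc4 had a ratio of 0.995 and Abcc5 one of 1.39. Abcb1a and Abcg2 are part of the rule, which was the same in both libraries.

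Among 19 solute carriers 1 was higher (Slc4a4, 1.6) and 1 lower (Slc52a3, 0.623), with a median log2 ratio of -0.02. The Slc4a4 ratio rested on 71 and 156 UMIs and fell short of the limit in 5 of 14 alternative settings, with 1.11 when likely doublets were left out, and crossed 1 in another, at 0.814 in cells thinned to 1000 UMIs. Slc2a1 stood at 703 in Control and 509.7 in DPN (0.725 times, 0.701 to 0.751), short of the 1.5-fold limit. Its ratio was below 1 in all 6 clusters outside clusters 3, 6, 7 and 9 (0.418 to 0.826), cluster 10 with its 7 cells included. The large amino acid carrier, made of Slc7a5 and Slc3a2, had ratios of 0.723 and 0.81. Slco1a4 had 1.12, Slc39a8 0.986 and Slc39a10 1.16. Slco1c1 had 0.762. Among these named carriers, those for glucose, amino acids and thyroid hormone thus lay below 1 in DPN.

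Of 15 junction genes, 4 were higher and none lower (median log2 ratio 0.30). These were the scaffold Tjp1 (307 and 529 CPM, 1.72 times), the catenins Ctnnb1 (17 and 47.1 CPM, 2.77 times) and Ctnnd1 (2.38 times), and Cgnl1, a linker to actin (1.57 times). The transmembrane protein Cldn5 stood at 3221 and 2469.7 (0.767 times, 0.755 to 0.779), and its ratio was below 1 in all 6 clusters. Esam, also a transmembrane protein, had 0.783, Jam2 1.37 and Cdh5 1.22, and the catenin Jup had 1.05. Cldn5 and Cdh5 are part of the rule.

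Of 18 genes of caveolae, transcytosis and receptors (median log2 ratio 0.16), 2 were higher, Cav2 (1.53), a coat protein of caveolae, and Insr (1.59), the insulin receptor. Cav1 had a ratio of 1.07 and Mfsd2a of 0.797 (0.758 to 0.837), below 1 in all 6 clusters. Of 19 Wnt and barrier transcription genes (median 0.10), 2 were higher, the co-receptor Lrp6 (2.05) and Sox7 (1.55). Lef1 had 0.989, Apcdd1 1.07 and Axin2 1.08. These 3 Wnt target genes, each higher than in the Plvap or Selp cells, thus stood within 10% of each other in Control and DPN.

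Few identity genes passed the limit. Of 22 endothelial identity genes only Ptprb was higher (1.54), of 9 capillary and 10 venous genes none passed the limit in either direction, and of 14 arterial genes 3 were higher and 3 lower. Efnb2, the arterial ephrin, had a ratio of 1.92, and Gja4, a gap junction protein, of 0.614. The median log2 ratio of the venous list was -0.34. Of 3 measured lymphatic genes 1 was higher, Lyve1 (2.38), with 84 and 274 UMIs.

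Of the pathway lists, the clock genes had the highest median. Of 13 with at least 200 UMIs, 10 were higher in DPN and 1 lower, against 16.9% and 4.40% of all genes, and their median log2 ratio was 0.91 against 0.04. In the cell's clock, Clock and Arntl (BMAL1) switch on the Per, Cry, Nr1d, Dbp, Tef and Bhlhe40 genes, and Per, Cry and Nr1d proteins switch the pair off again. The output factor Dbp stood at 32.8 CPM in Control and 119.9 in DPN (3.66 times, 3.23 to 4.15), Tef at 24.2 and 58.5 CPM (2.41 times) and Bhlhe40 at 72.2 and 168 CPM (2.32 times). The repressors Per2 (18 and 51.4 CPM, 2.86 times), Nr1d1 (143 and 287 CPM, 2.02 times), Nr1d2 (2.28 times), Ciart (1.88 times), Cry1 (1.87 times), Cry2 (1.81 times) and Per3 (1.51 times) were higher too, with Per3 short of the limit in 7 of 14 alternative settings.

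Arntl was the 1 lower gene, at 23.6 CPM in Control and 10.5 in DPN (0.445 times, 0.356 to 0.554). Clock had a ratio of 1.23 and Nfil3 of 1.03. In the 5 clusters with enough UMIs, Dbp had ratios of 3.54 to 10.5, Per2 of 2.09 to 6.05 and Arntl of 0.207 to 0.515, while Ciart ranged from 0.761 to 2.92 and was below 1 in 1 of them. In the remaining cells, 10 genes were again higher and 1 lower. The glia of the same libraries had Dbp at 36.7 and 112 CPM and Arntl at 12.9 and 6.95, so the same 2 genes also differed there. The time of day at which each pool was collected is not stated in the labels or the methods, and it cannot be told apart from DPN.

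**Figure D4:**
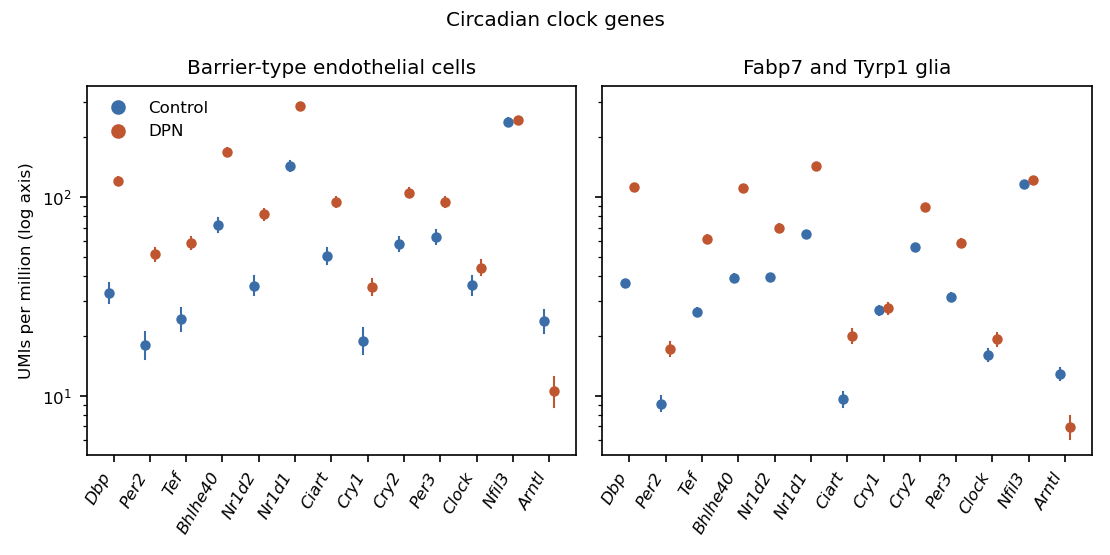
Levels of 13 clock genes in the barrier-type cells (left) and in the Fabp7 and Tyrp1 glia (right), in CPM on a log axis, for Control and DPN with exact Poisson 95% intervals. In the barrier-type cells Dbp lies furthest above Control in DPN, and Arntl alone lies below it.

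The promoters of clock genes are shown because the activator pair binds an E-box (CACGTG) and Dbp and Tef bind a D-box (TTATGTAA). Promoters are RefSeq sequences of the GRCr8 build, 250 bases before to 50 after the gene start, searched on both strands. An E-box was found in 3 of 12 clock promoters, against 6.42% of 33469 promoters, and a D-box in 1 of 12, against 0.893%. Ciart (chr2:186112197-186112496, minus strand) held 3 E-boxes, Tef (chr7:115206577-115206876, plus strand) and Bhlhe40 (chr4:143174200-143174499, plus strand) 1 each, and Per2 (chr9:99496944-99497243, minus strand) the D-box. Capitals mark the match, which is a description and not a site or a cause.
Ciart: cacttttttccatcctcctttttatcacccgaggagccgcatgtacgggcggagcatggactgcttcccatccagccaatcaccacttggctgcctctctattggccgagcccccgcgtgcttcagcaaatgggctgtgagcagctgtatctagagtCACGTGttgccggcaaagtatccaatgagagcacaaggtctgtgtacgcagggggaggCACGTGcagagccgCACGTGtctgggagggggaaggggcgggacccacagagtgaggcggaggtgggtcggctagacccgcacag
Tef: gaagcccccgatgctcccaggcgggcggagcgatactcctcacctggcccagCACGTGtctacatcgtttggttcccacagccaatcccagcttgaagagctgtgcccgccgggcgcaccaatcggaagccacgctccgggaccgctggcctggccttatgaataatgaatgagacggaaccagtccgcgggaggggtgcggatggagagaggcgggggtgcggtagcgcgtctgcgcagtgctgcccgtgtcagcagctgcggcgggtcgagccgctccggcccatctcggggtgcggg
Bhlhe40: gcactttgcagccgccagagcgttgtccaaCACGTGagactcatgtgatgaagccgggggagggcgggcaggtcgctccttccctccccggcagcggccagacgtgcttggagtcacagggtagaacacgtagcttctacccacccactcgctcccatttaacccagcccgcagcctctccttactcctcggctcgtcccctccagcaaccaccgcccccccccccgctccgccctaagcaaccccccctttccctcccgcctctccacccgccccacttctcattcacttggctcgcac
Per2: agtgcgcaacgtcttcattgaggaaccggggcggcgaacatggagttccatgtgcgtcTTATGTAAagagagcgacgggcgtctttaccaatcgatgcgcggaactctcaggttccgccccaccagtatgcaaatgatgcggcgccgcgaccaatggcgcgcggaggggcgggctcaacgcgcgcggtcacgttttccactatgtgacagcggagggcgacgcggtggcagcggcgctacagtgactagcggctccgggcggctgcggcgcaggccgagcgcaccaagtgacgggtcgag

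Several heat shock chaperones were lower in DPN. Of 17 genes of the cytosolic heat shock list, 5 were lower and 1 higher, and the median log2 ratio was -0.39. Hspa1b, an inducible HSP70 whose reads may be shared with a near-identical copy, stood at 9817 CPM in Control and 5083 in DPN (0.518 times, 0.513 to 0.523). Its co-chaperone Dnajb1 stood at 579.9 and 318 CPM (0.549 times), the mitochondrial co-chaperonin Hspe1 at 45.9 and 24.9 CPM (0.543 times), the small chaperone Cryab had a ratio of 0.609 and the HSP90 activator Ahsa1 of 0.648. Hspa4 was higher (1.66). Hspa1b was not lower in every cluster, since its ratio ranged from 0.261 to 1.19, with 1.19 in cluster 2. Dnajb1 ranged from 0.142 to 1.27 and Ahsa1 from 0.509 to 1.08, each above 1 in 1 cluster. Hspe1 lay below 1 in the 5 clusters with at least 20 UMIs (0.378 to 0.836). In the remaining cells 3 genes were lower and 1 higher.

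The heat shock factor binds inverted repeats of GAA, written here as GAANNTTC. This motif was found in 10 of 14 heat shock promoters, against 8.59% of all promoters, and the overlapping windows of Hspd1 and Hspe1 hold 1 match in common. It was also found for genes that did not pass the limit, such as Hspa8 and Hsph1, and not for Ahsa1, which was lower. The match is a description and not a site or a cause. Dnajb1 (chr19:41431092-41431391, minus strand) and Hspe1 (chr9:64084077-64084376, plus strand), both lower in DPN, are shown with it in capitals.
Dnajb1: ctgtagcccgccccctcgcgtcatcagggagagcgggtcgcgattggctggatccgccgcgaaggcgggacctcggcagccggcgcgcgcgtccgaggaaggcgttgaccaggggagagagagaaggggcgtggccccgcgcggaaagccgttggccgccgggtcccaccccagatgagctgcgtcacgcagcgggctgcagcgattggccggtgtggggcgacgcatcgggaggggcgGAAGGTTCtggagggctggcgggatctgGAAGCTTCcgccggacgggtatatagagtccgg
Hspe1: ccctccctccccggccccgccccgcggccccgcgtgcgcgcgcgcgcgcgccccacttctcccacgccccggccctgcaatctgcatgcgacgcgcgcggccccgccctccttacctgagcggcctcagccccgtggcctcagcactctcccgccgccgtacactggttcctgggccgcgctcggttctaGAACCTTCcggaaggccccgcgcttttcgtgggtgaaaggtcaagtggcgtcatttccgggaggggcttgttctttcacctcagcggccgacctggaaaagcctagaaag

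Of 21 chaperones and stress genes of the endoplasmic reticulum (median log2 ratio 0.17), 3 were higher and none lower, a share no greater than the 16.9% of all genes. Hspa5 (BiP) stood at 923 CPM in Control and 1598 in DPN (1.73 times, 1.69 to 1.78) and was above 1 in all 6 clusters (1.44 to 2.85). Hsp90b1 (GRP94) had a ratio of 1.61 and Atf6, a sensor of misfolded proteins, of 2.35. Of 23 immediate early genes (median 0.22), 6 were higher and none lower. Fos stood at 4291 and 6262 CPM (1.46 times) and Jun at 3735 and 5824 CPM (1.56 times), Fosb had 1.95 and Jund 1.75.

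Among vessel growth signals, the co-receptors of VEGF were higher and some ligands lower. Of 18 VEGF, angiopoietin and apelin genes (median log2 ratio 0.03), 2 were higher and 2 lower. The co-receptor Nrp1 stood at 317 CPM in Control and 653 in DPN (2.06 times, 1.98 to 2.15), above 1 in all 6 clusters (1.87 to 2.94), and Nrp2 had a ratio of 2.11. Kdr (VEGFR2) had 1.41 and Flt1 (VEGFR1), a gene of the rule, 1.38. The tip cell ligand Apln stood at 117 and 62.5 CPM (0.533 times) and Vegfc had a ratio of 0.613.

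Of 14 TGF-beta and BMP genes (median log2 ratio 0.15), 3 were higher and 1 lower. Tgfbr2, the receptor that binds the ligand, stood at 50 and 130.2 CPM (2.6 times, 2.35 to 2.89), with 2.47 to 3.25 over clusters, Bmpr2 at 143 and 262 CPM (1.83 times), and Smad5 had 1.51. The BMP target Id2 had 0.641 and Id1 0.77. Of 11 Notch genes (median 0.16), Rbpj, the nuclear effector, was higher (2.57), and the targets Hes1 (331 and 212 CPM, 0.641 times) and Heyl (0.60 times) were lower. Heyl is also a pericyte gene and had a ratio of 1.41 in the remaining cells. The ligand Dll4 had 1.49.

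The counts of basement membrane genes depended on the clusters led by other cells. Among all members, 4 of 18 were higher and 1 lower, with a median log2 ratio of 0.14, and in the remaining cells 7 of 17 were higher and none lower, with a median of 0.40. The collagen chain Col4a2 had a ratio of 2.56 (2.16 to 3.05), the laminin chains Lamc1 2.21 and Lama4 1.8, and the protease Adamts1 stood at 260.4 and 576 CPM (2.21 times). Nid1, which links laminin to collagen, had 0.648. Sparc, a matrix protein, had 0.769. In the clusters, Col4a2 had ratios of 1.84 to 5.88, all above 1.

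Leukocyte adhesion and antigen presentation genes leaned lower. Of 16 adhesion molecules and chemokines 2 were lower and none higher, and the median log2 ratio was -0.32. Ccl2, which attracts monocytes, stood at 485 CPM in Control and 177 in DPN (0.365 times, 0.347 to 0.384), and in the remaining cells at 140.2 and 50. The glia had it at 2569 and 1670.3, far above the vessel cells, and how much of the vessel signal was free RNA was not tested. Cxcl10 stood at 853 and 567 CPM (0.665 times), Cx3cl1 had 0.678 and Icam1 0.759.

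Of 25 MHC class I and interferon genes 3 were lower and 2 higher, with a median log2 ratio of -0.26. The class I heavy chain RT1-A2, whose reads may be split with related RT1 genes, stood at 599.8 and 385 CPM (0.642 times) and lay below 1 in all 6 clusters (0.419 to 0.763). B2m, the light chain, had 0.771 and the peptide transporter Tap2 0.489. Isg15 stood at 202 and 123 CPM (0.61 times). Ifit2 (1.55) and Irf9 (1.66), both induced by interferon, were higher, so the list did not go one way.

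Of 19 genes of vascular tone and coagulation (median log2 ratio 0.10), 2 were higher and 1 lower. Ace, which makes angiotensin II, had a ratio of 2.2 and the flow-sensing factor Klf2 one of 1.81. The adenosine receptor Adora2a stood at 26.8 and 10.4 CPM (0.388 times). Nos3, which makes nitric oxide, stood at 60.1 and 86.6 CPM (1.44 times), and the vasoconstrictor Edn1 had 1.4, both short of the limit.

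Genes of glucose and lipid metabolism showed single differences and no shared direction. Of 18 glucose genes (median log2 ratio -0.13) 3 were higher and 2 lower: Hk1 (2.95), Pkm (2.57) and Pfkfb3 (1.56), all of glycolysis, against Ldhb (944 and 576 CPM, 0.611 times) and Tpi1 (0.665 times). Txnip, which glucose induces, stood at 1042 and 1265 CPM (1.21 times, 1.18 to 1.25), below the limit. Of 15 insulin, IGF and FOXO genes (median 0.14) 3 were higher, among them Insr and Sesn3 (2.1), and none lower. Igfbp7, a secreted IGF-binding protein, had 0.717.

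Of 18 PPAR and fatty acid genes (median log2 ratio -0.04) 3 were higher, the oxidation enzyme Hadha (1.55), Pdk4 (1.54), which spares glucose, and the lipid droplet protein Plin2 (1.93), and 2 were lower, the lipase Lpl (0.595) and Ucp2 (0.602). Lpl had a ratio of 1.72 in the remaining cells. Of 17 cholesterol genes (median -0.00) only the synthase Hmgcs1 was higher (1.83). Of 15 glucocorticoid-responsive genes (median -0.09) 2 were higher, Pdk4 and Zbtb16 (1.56), and none lower.

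Stress and detoxification genes also went both ways. Of 23 metallothionein and antioxidant genes (median log2 ratio -0.10) 1 was higher, Txnrd1 (1.63), and 2 were lower, Gsta4 (0.623) and the haem-degrading Hmox1 (135 and 81.9 CPM, 0.606 times). Of 16 hypoxia genes (median 0.01) 3 were higher, Hif1a (1.62), P4ha1 (1.6) and Pfkfb3, and Ankrd37 was lower (0.651). Of 13 xenobiotic genes (median 0.11) 3 were higher, the receptor Ahr (90.1 and 150.1 CPM, 1.67 times), its target Tiparp (1.51) and Ephx1 (1.53), and 2 lower, Gsta4 and the sterol receptor Nr1h3 (0.616).

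**Figure D5:**
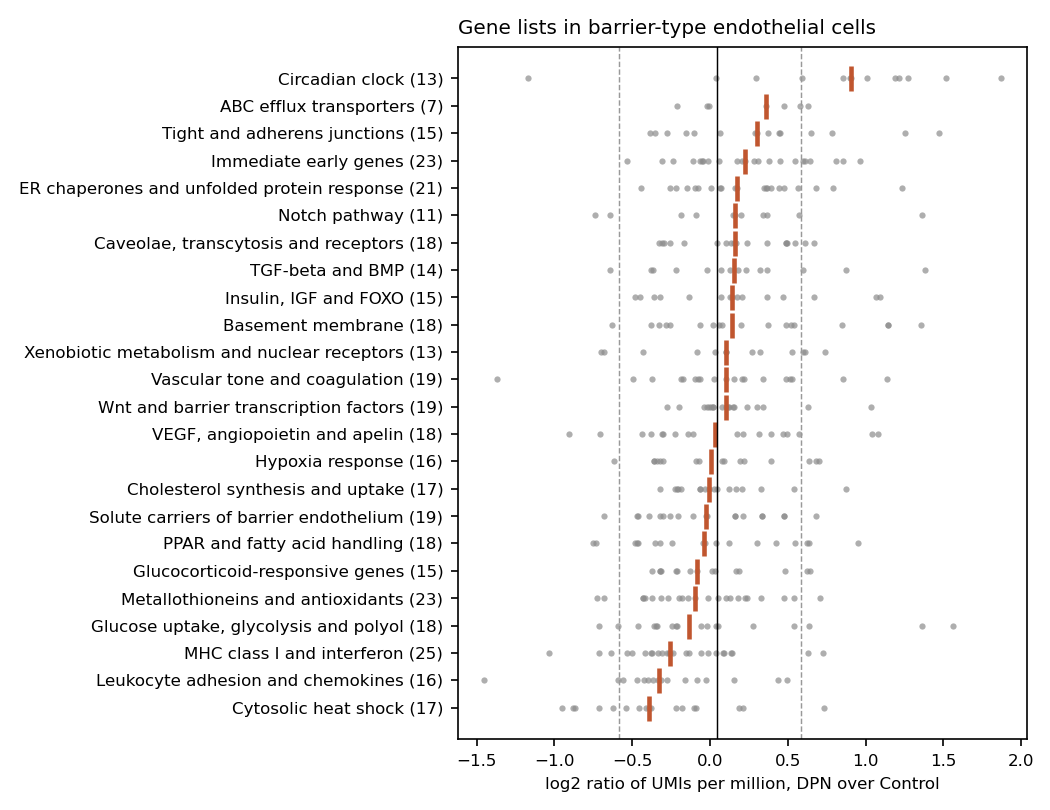
DPN over Control log2 ratio of each measured gene in the pathway lists, in all barrier-type cells, with 1 point per gene, a bar at each list's median, a solid line at the median of all genes and dashed lines at the 1.5-fold limits. The clock list has the highest median, 0.91, and the cytosolic heat shock list the lowest, -0.39.

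In the remaining cells some counts differed from those over all members. Of 17 VEGF, angiopoietin and apelin genes 4 were higher and 2 lower, with Angpt2 at 1.58 and Calcrl at 1.57 added, and of 23 immediate early genes 5 were higher and 1 lower, Nr4a1 at 0.642. Of 10 venous genes 2 were higher (Nr2f2 and Vcam1), and of 22 identity genes none, with Ptprb at 1.37. Of 15 adhesion genes 1 was higher (Vcam1) and 3 lower (Ccl2, Cxcl10 and Cx3cl1), and of 24 MHC class I and interferon genes 1 was higher and 2 lower. Of 14 arterial genes 3 were higher and 4 lower, and of 7 ABC transporters 2 were higher (Abcb1a and Abcc6). Of 17 solute carriers none was higher and 1 lower, of 19 Wnt genes 1 was higher, of 9 Notch genes 1 was higher and 1 lower, and of 17 vascular tone genes 2 were higher and none lower. Of 16 glucose genes 2 were higher and 1 lower, of 12 insulin genes 2 were higher, and of 14 PPAR genes 1 was higher and 1 lower. None of 13 glucocorticoid-responsive genes passed the limit, of 11 xenobiotic genes 2 were higher and none lower, of 20 antioxidant genes 2 were higher and 1 lower, and of 14 hypoxia genes 3 were higher and none lower.

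Markers of other cells also differed between the libraries. The sensory neuron list summed to 215 CPM in Control and 404 in DPN, and 7 of its 9 measured genes were higher. In the remaining cells the sums were 205 and 405. Stmn2 stood at 41.7 and 81.6 CPM and Calca at 31.2 and 52.9 CPM, and in the thinned cells Calca was found in 5.72% and 11% of barrier-type cells and in 3.96% and 7.55% of glia. Haemoglobin Hba-a2 stood at 253 and 481 CPM. The satellite glia list, with Apoe, summed to 9665 and 7736, the Schwann cell list to 654 and 526, and the macrophage list to 21.2 and 35.6. The part of these cells or their free RNA in the other differences was not tested, beyond the values in the remaining cells.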

How the data were processed

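Counts of UMIs per gene and barcode were deposited as 1 matrix per library. The authors made them with Cell Ranger 3.1.0 and its STAR aligner from 10x 3′ v3 libraries, and the genome build and STAR version are not given in the sources used here. Identifiers (32623) were summed by symbol to 30017, and genes without a symbol are not analysed here. No column of another sample was present.

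The cells were chosen and the gene lists drawn up with earlier results of these data known, so none of them was blind to the outcome. UMIs were summed over the cells of each library and divided by their total. Ratios carry exact conditional binomial 95% intervals, levels exact Poisson intervals and shares Clopper-Pearson intervals. A gene with at least 200 UMIs counted as higher or lower past 1.5-fold. Named genes were the 15 highest and 15 lowest ratios with an interval that leaves out 1, detected in no fewer than 10% of cells of either library, the 20 and 10 most different from the Plvap or Selp cells in both libraries, and members of the lists, a few of which are not reported here. With 1 library per condition no test was run.

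Shares were compared after thinning each cell to 1000 UMIs. Clusters came from 1500 variable genes, 15 components centred per library, 15 neighbours and Leiden resolution 0.5 (leidenalg 0.10.2, igraph 0.11.9, scikit-learn 1.9.0). Doublets were scored against simulated doublets and kept. Scripts ran in Python 3.11.15 with numpy 2.4.6, scipy 1.17.1 and pandas 2.3.3. On simulated data, where 200 of 7385 genes were changed 2-fold, 100 of 100 raised and 99 of 100 lowered genes were found, with 2 false calls. These data held counting error only, without spread between cells, clusters, rats or libraries. The result thus checks the calculation and cannot give the error of the calls made here. Alternatives covered scaling, mitochondrial and depth limits, doublets, thinning, the rule's thresholds and other cells.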

Additional observations from a re-analysis of the deposited data

Results flagged for a closer look

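The following genes differed in direction between cell groups of the same libraries, each past 1.5-fold in opposite directions, and the difference itself was not tested. Apod had a DPN over Control ratio of 6.06 in the barrier-type cells and 0.497 in the Fabp7 and Tyrp1 glia, with the few cells that carry it described above. Bgn, a matrix proteoglycan, had 0.363 in the barrier-type cells and 3.06 in the Plvap or Selp cells (1.79 to 5.36). Ccl2 had 0.365 against 4.5 (3.0 to 6.89) in the Plvap or Selp cells. Ptgir, the prostacyclin receptor, had 0.387 against 2.27 in the glia. Ankrd37, a hypoxia target, had 0.651 against 1.53 in the glia. Id2 had 0.641 against 1.61 (1.02 to 2.54) in the Plvap or Selp cells, where counts were low. Lpl had 0.595 against 1.91 in the glia and 4.28 (1.46 to 15.2) in the Plvap or Selp cells, but 1.72 in the barrier-type cells outside clusters 3, 6, 7 and 9, the same direction as the others, and Apod had 0.623 there, also the direction of the glia.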

How the results depend on the processing

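No paired analysis was possible because only 1 pooled library stands for each condition, and no replicate could be left out. Of 114 named and list genes under 14 settings, 1482 values kept their direction and side of the 1.5-fold limit, 105 fell short of it and 9 crossed 1, and 63 genes kept both in every setting. The minimum of 50 UMIs is 1 of the 14 settings and cannot change the ratio of a gene, so its 114 values were bound to stay. Leaving mitochondrial UMIs out of the totals only rescaled all ratios alike, with a median log2 ratio of 0.0440 against 0.0434. Thinning each cell to 1000 UMIs left 1261 genes, of which 168 were higher and 65 lower, and moved the list median to 1.27 for clock genes and -0.17 for cytosolic heat shock genes. It also put Slc4a4 at 0.814 and Tap2 at 1.11. A minimum of 50 UMIs gave 10248 genes, 2090 higher and 590 lower, since more genes were tested. Leaving out cells above the median of other cells' markers put Apod at 0.541 and Dcn at 0.548. Leaving out clusters 3, 6, 7 and 9, chosen after seeing the data, gave 1074 higher and 202 lower, and put Apod at 0.623, Dcn at 0.928, Ogn at 1.0, Heyl at 1.41 and Lpl at 1.72. Under the other settings 902 to 1323 genes were higher and 218 to 408 lower, the last with median-ratio scaling, which shifted all log2 ratios by -0.04. Barrier-type cells made up 90.8% of Control and 94.6% of DPN endothelial cells at an endothelial minimum of 20 per 10000, and 84.6% and 87.7% at a margin of at least 2 efflux UMIs. The cause of the crossings was not tested. Depth limits the Plvap or Selp cells most, with 613735 and 401260 UMIs, where 3 counts equal 4.89 and 7.48 CPM.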

Other observations

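The remaining cells, without clusters 3, 6, 7 and 9, had their own extremes by the same rule, which shared 8 of the 15 highest and 2 of the 15 lowest genes with all members. Ptn (pleiotrophin), a heparin-binding growth factor, was among the lowest. Ptn stood at 4999 CPM in Control and 2538 in DPN, a ratio of 0.508, and it was below 1 in all 6 clusters of these cells (0.433 to 0.839). Egfl8, a secreted protein, had a ratio of 0.492 and lay between 0.373 and 0.695 over 5 clusters. Mmp15, a membrane-bound protease, lay between 0.297 and 0.658 over the same number. Ibsp, Ccl2, Ptgds, Arntl, Hebp2, Cd24, Apmap, Bmp15, Tpd52l1, Hmgn3, Hpcal1 and Dnajb1 completed the 15 lowest.

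The 15 highest of the remaining cells included Slc30a9, Rictor, Mcc, Nefm, Ppp1r13b, Ski, Arhgap26, Pcdhgc3, Rap1b, Dbp, Paxbp1, Suz12, Wdr82 and Pde5a. Slc30a9, a zinc carrier, had a ratio of 5.05, and Nefm, a neurofilament of neurons, one of 4.39. Ucp2, which uncouples mitochondria, had a ratio of 0.602 in all barrier-type cells and lay below 1 in all 6 clusters (0.461 to 0.89).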
